A study of Mus musculus with 6 samples.

Results

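The 10 genes described here are Lin28a, Lin28b, Hmga1, Hmga2, Trim71, Igf2bp1, Dicer1, Drosha, Dgcr8 and Ago2, picked by gene symbol from the bulk gene count tables of mouse cells. They are 10 of the 16279 genes that either table lists, and all 10 were in both tables and passed the filter on low counts, as did 12471 genes in all. The RNA came from male F1 embryonic stem cells (mESCs) and from cardiac precursor cell cultures (CPCCs) derived from them. The cross was labelled C57BL/6 x CAST/EiJ, with C57BL/6J mothers, as the methods of the study give them. The mESCs were grown without feeders in 2i medium (a MEK inhibitor and a GSK3 inhibitor) with LIF and serum. CPCCs were derived through embryoid bodies treated with ascorbic acid and later passaged with EGF, FGF2 and serum. Both groups carry the same F1 genotype, and there were 3 libraries of each, from 3 clones, each grown from a single mESC of a line derived from blastocysts. The comparison asks how expression of each gene differed between mESCs and CPCCs. CPCCs are mixed cultures, so fewer cells of a type and less RNA per cell cannot be told apart.

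LIN28A and LIN28B are RNA-binding proteins that hold back the maturation of the let-7 microRNAs, and let-7 in turn targets the messages of Lin28a, Lin28b, Hmga2, Trim71 and Igf2bp1. A microRNA precursor is cut in the nucleus by DROSHA with DGCR8, cut again in the cytoplasm by DICER1, and loaded into an Argonaute protein such as AGO2, which the seed of the microRNA guides to matching messages. LIN28, HMGA2, TRIM71 and IGF2BP1 are known from stem and embryonic cells, where let-7 is low, and let-7 rises as most cells differentiate. The libraries hold polyadenylated RNA, so mature microRNAs were not measured, and no let-7 hairpin had a row in either table.

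Sequences of let-7 are shown because the seed decides which of the 10 messages can pair with it. In the RefSeq table (GRCm38.p6), 11 mature microRNAs from 13 loci that were kept shared the seed GAGGUAG, bases 2 to 8. A chromosome was left out before these loci and the let-7 family hairpins below were counted, so the counts may not cover every locus. Capitals mark that seed in 5 of them.
let-7a-5p: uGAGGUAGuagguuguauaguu
let-7b-5p: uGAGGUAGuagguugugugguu
let-7g-5p: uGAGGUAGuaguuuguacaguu
let-7i-5p: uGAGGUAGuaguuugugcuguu
miR-98-5p: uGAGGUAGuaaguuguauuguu

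LIN28 proteins are known to bind a GGAG motif in the loop side of many let-7 precursors. Of the 11 let-7 family hairpins that were kept and had both arms in the RefSeq table, 8 held GGAG between the arms. Mirlet7b, Mirlet7c-2 and Mir98 did not. Over all 1005 hairpins in that table, 44.5% held GGAG anywhere. One hairpin with the motif, in capitals, and one without it are shown.
Mirlet7g hairpin (chr9:106178840-106178927, plus strand): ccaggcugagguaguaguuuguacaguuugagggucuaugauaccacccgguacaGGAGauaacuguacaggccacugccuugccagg
Mirlet7b hairpin (chr15:85707319-85707403, plus strand): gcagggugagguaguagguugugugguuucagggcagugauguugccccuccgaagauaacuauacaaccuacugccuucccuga

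The reverse complement of the seed is CTACCTC, and it was counted in the longest annotated 3′ UTR of each gene (GENCODE M21, GRCm38). Lin28b, Hmga2, Trim71 and Igf2bp1 each held 4 matches, Ago2 held 3, Lin28a held 2 and Hmga1 held 1. Dicer1, Drosha and Dgcr8 held 0, in 3′ UTRs of 3851, 169 and 1574 bases. Of 11870 tested genes with an annotated 3′ UTR, 10.8% held at least 1 match and 0.219% held 3 or more, while 7 of these 10 genes held at least 1. Several of the 10 were known let-7 targets when they were picked, so this count is no independent evidence. The 3′ UTRs of those 7 ran from 1183 to 11064 bases, against a median of 1196 bases over the 11870 tested genes. The part of length in the count was not tested. Capitals mark the match, together with an A opposite base 1 of the microRNA where there is one, and each lies in exonic 3′ UTR.
Lin28a match 1, base 909 of 2775 (chr4:134005184-134005208, minus strand): cagcctgttgaaCTACCTCAttttt
Lin28a match 2, base 1547 of 2775 (chr4:134004546-134004570, minus strand): atcgccacaaacCTACCTCActgtg
Lin28b match 1, base 36 of 4445 (chr10:45381017-45381041, minus strand): cgggcgggaagtCTACCTCAtgcaa
Hmga1 match 1, base 801 of 1183 (chr17:27563280-27563304, plus strand): tctgttcacaaaCTACCTCtggacg
Hmga2 match 1, base 58 of 3014 (chr10:120364219-120364243, minus strand): gacattcaatttCTACCTCAgcatc
Hmga2 match 2, base 1295 of 3014 (chr10:120362982-120363006, minus strand): cactcctcaataCTACCTCtgaatg
Hmga2 match 3, base 1733 of 3014 (chr10:120362544-120362568, minus strand): atttgcaaggaaCTACCTCcacact
Hmga2 match 4, base 2591 of 3014 (chr10:120361686-120361710, minus strand): caaaacacactaCTACCTCttaagt
Trim71 match 1, base 166 of 5512 (chr9:114512467-114512491, minus strand): attgcctaagtcCTACCTCAgctta
Trim71 match 2, base 262 of 5512 (chr9:114512371-114512395, minus strand): gataatttctatCTACCTCAactct
Igf2bp1 match 1, base 1715 of 6337 (chr11:95961773-95961797, minus strand): gtgcgaagtaaaCTACCTCAaggtg
Ago2 match 1, base 5177 of 11064 (chr15:73101719-73101743, minus strand): gatgcataaaagCTACCTCtgactt

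All 4 matches in Trim71 and both in Lin28a were followed by that A, but 1 of 4 was in Hmga2 and in Lin28b, 3 of 4 in Igf2bp1, 1 of 3 in Ago2 and 0 of 1 in Hmga1. In Hmga2 the first match lay 58 bases past the stop codon and in Lin28b 36 bases past it. The gene model in the count tables ends before matches 3 and 4 of Trim71 and before matches 2 and 3 of Ago2, so reads there were outside the counted span.

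**Figure D1:**
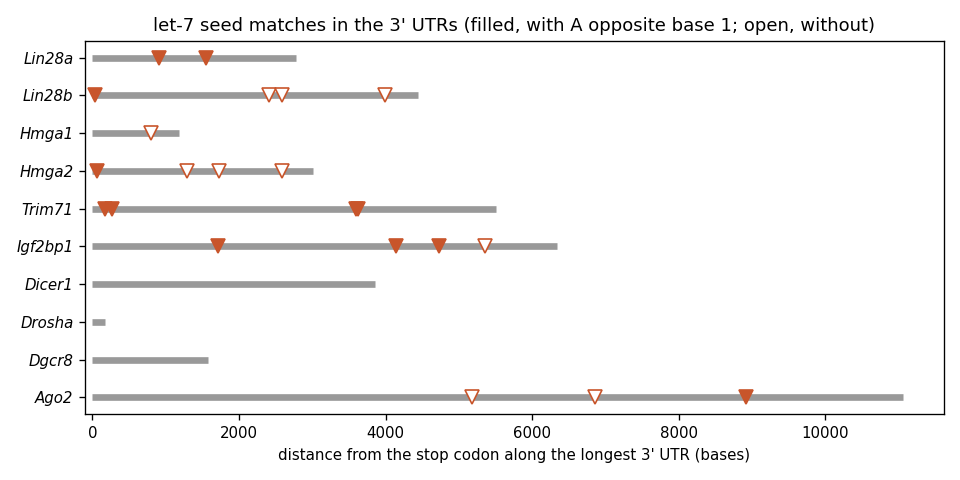
The longest 3′ UTR of each of the 10 genes is drawn to scale as a grey bar from the stop codon, with the x axis in bases, and triangles mark each CTACCTC match. Filled triangles have an A opposite base 1 of let-7, and the rows of Dicer1, Drosha and Dgcr8 have no triangle.

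The libraries held between 6442639 and 11436062 estimated counts each, with the CPCC libraries the deeper ones. The labelled cell types were checked against markers. All 10 pluripotency markers fell, with a summed level of 4975 to 5264 counts per 1000000 (CPM) in mESCs and 146.0 to 407 CPM in CPCCs. Of 10 cardiac progenitor markers, Tnnt2 and Tbx20 rose, Isl1, Gata4 and Actn2 did not pass the test, Nkx2-5, Mef2c, Hand2 and Myh6 were listed for CPCCs alone and Tbx5 for mESCs alone. Their summed level in CPCCs was 73.3 to 213 CPM, against 6284 to 9059 CPM for 10 mesenchymal markers, 510 to 716 CPM for 8 neural markers and 459 to 744 CPM for 8 endoderm markers. A few genes made up most of these sums. In CPCCs Col1a1, Col1a2 and Col3a1 averaged 3050, 2376 and 1671 CPM, Nes and Tubb3 358 and 156 CPM, and Lamb1 and Dab2 417 and 136 CPM. Pdgfra did not pass the test, Sox17 did not pass the filter, and Neurog2, Afp and Ttr had no row. The sums therefore do not count cells of a type, and the part of other cells in the results below was not tested.

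Of the 10 genes, 6 differed between the cell types in edgeR's quasi-likelihood test at an adjusted p below 0.05. Hmga2 and Lin28b rose in CPCCs, and Trim71, Igf2bp1, Hmga1 and Drosha fell. The remaining 4, Lin28a, Dicer1, Dgcr8 and Ago2, did not pass the test. The background was high: 61.4% of the 12471 genes tested passed, 31.7% higher and 29.7% lower in CPCCs, so 6 of 10 is close to the share of all genes. For 8 of the 10 genes the CPCC and mESC libraries did not overlap, against 69.7% of all genes tested. The log2 fold change of CPCCs over mESCs had a median of -0.19 over the 10 genes and 0.03 over all genes tested. In the exact permutation test over the 6 libraries, two-sided, those 8 genes reached 0.1, the smallest p that 3 against 3 allows, and Lin28a and Dgcr8 gave 0.4 and 1.0.

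**Figure D2:**
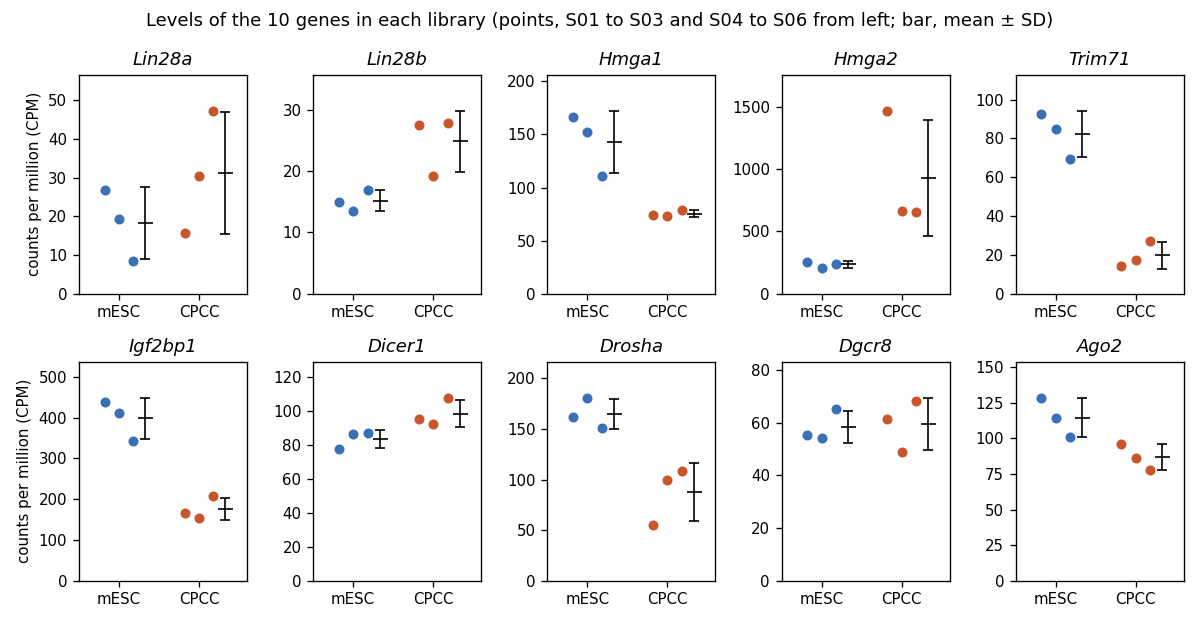
CPM of each gene is plotted in the 3 mESC (blue) and 3 CPCC (red) libraries, with mean ± SD in black and each axis starting at 0. Hmga2 sits between 205 and 258 CPM in mESCs and between 657 and 1463 CPM in CPCCs, while the points of Lin28a and Dgcr8 overlap.

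**Figure D3:**
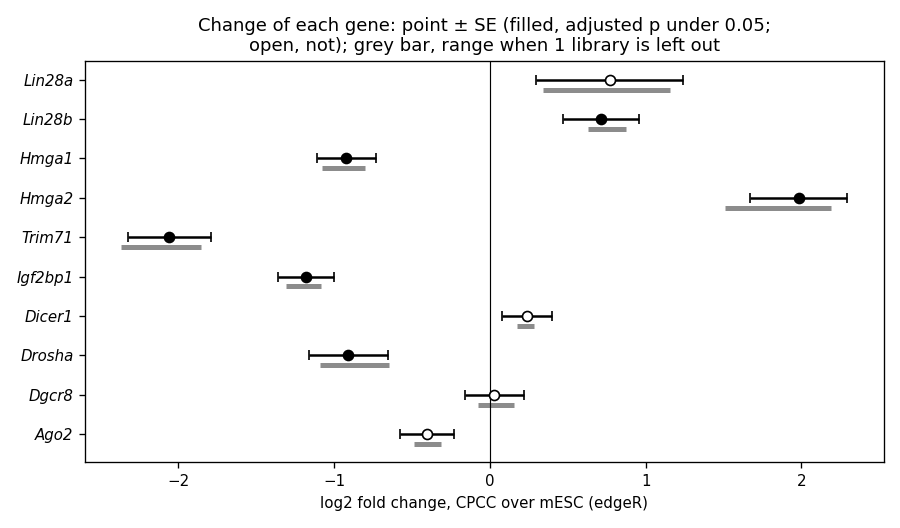
The log2 fold change of each gene (CPCC over mESC, x axis) is drawn with its SE, filled where the adjusted p is below 0.05, and the grey bar gives the range when 1 library is left out. Hmga2 lies farthest to the right at 1.98 and Trim71 farthest to the left at -2.06, and the bar of Dgcr8 crosses 0.

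Lin28a (chr4:134003330-134018817, minus strand) is the LIN28 paralog best known from embryonic stem cells. Its level was 26.9, 19.3 and 8.49 CPM in the mESC libraries (S01 to S03), against 15.7, 30.5 and 47.1 CPM in the CPCC libraries (S04 to S06). Both groups spread widely and overlapped, with S03 the lowest of all libraries at 58 counts and S06 the highest at 411 counts. The log2 fold change was 0.77 with an SE of 0.47, and the adjusted p from edgeR was 0.184. Without library S04 the log2 fold change was 1.11 with an adjusted p of 0.0213 from edgeR, so the call rests on that library. Lin28a and all 10 pluripotency markers were counted in each of the 3 CPCC libraries.

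Lin28b (chr10:45376619-45470202, minus strand) is the second paralog, encoded by a longer gene with a long 3′ UTR. Its level was 15.0, 13.5 and 17.0 CPM in the mESC libraries and 27.5, 19.2 and 27.9 CPM in the CPCC libraries. Every CPCC library lay above every mESC library, with S05 closest to them. Lin28b rose by 0.71 on the log2 scale with an SE of 0.25 and an adjusted p of 0.0308 from edgeR. The call was lost without S01, S02 or S06, at adjusted p values of 0.0849, 0.0996 and 0.0852 from edgeR.

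Within each library, Lin28a was set against Lin28b per kilobase of exon. The log2 ratio of CPM per kilobase was 1.94, 1.61 and 0.10 in mESCs and 0.29, 1.76 and 1.86 in CPCCs. Lin28a was thus the higher of the pair in all 6 libraries, and nearly level with Lin28b in S03 and S04. The mean ratio differed between CPCCs and mESCs by 0.09 on the log2 scale, well inside the SDs of 0.98 in mESCs and 0.88 in CPCCs (exact permutation test, two-sided, p = 0.7, and 0.7 adjusted over the 3 ratios examined).

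Hmga2 (chr10:120361268-120476470, minus strand) encodes a chromatin protein that binds AT-rich DNA through AT-hooks and is abundant in embryonic and mesenchymal cells. Its level was 258, 205 and 242 CPM in mESCs, against 1463, 666 and 657 CPM in CPCCs. The CPCC libraries all lay above the mESC libraries, and S04 stood far above S05 and S06. Hmga2 rose by 1.98 on the log2 scale with an SE of 0.31, a fold of 3.96, and an adjusted p of 0.000574 from edgeR. Without S04 it rose by 1.51 on the log2 scale, and it passed the test under all 15 alternatives. An antisense gene, 9230105E05Rik, lies inside Hmga2 and held 4 to 22 counts a library, against 1392 to 14710 counts for Hmga2, in libraries whose kit does not mark strand.

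Hmga1 (chr17:27556574-27563673, plus strand), the paralog of Hmga2 and also an AT-hook protein, went the other way. Its level was 166, 152 and 110.6 CPM in mESCs, against 73.9, 73.3 and 79.2 CPM in CPCCs. The CPCC libraries sat close together, and S03 was the lowest of the mESC libraries. Hmga1 fell by 0.92 on the log2 scale with an SE of 0.19 and an adjusted p of 0.00254 from edgeR. The tables also hold a row for Hmga1b over nearly the same stretch of chromosome 17, so the authors' counting could split reads between them. The Hmga1b row took 1.03% to 16.1% of their sum, the least in S04. With both rows summed the level was 182, 181 and 130 CPM in mESCs, against 74.7, 82.3 and 91.7 CPM in CPCCs, and the sum fell by 0.99 on the log2 scale with an adjusted p of 0.00173 from edgeR.

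The HMGA pair was also set against each other within each library. The log2 ratio of Hmga2 to Hmga1, in CPM per kilobase of exon, was -1.09, -1.30 and -0.60 in mESCs and 2.58, 1.46 and 1.33 in CPCCs. Hmga1 was the higher of the pair in every mESC library and Hmga2 in every CPCC library. The difference of the means was 2.78 on the log2 scale (exact permutation test, two-sided, p = 0.1, the smallest possible, and 0.3 adjusted over the 3 ratios), and it was 2.86 with Hmga1b added to Hmga1. As a share of the pair, Hmga2 made up 33.5% ± 5.61 (SD, n = 3) in mESCs and 76.8% ± 7.73 (SD, n = 3) in CPCCs.

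**Figure D4:**
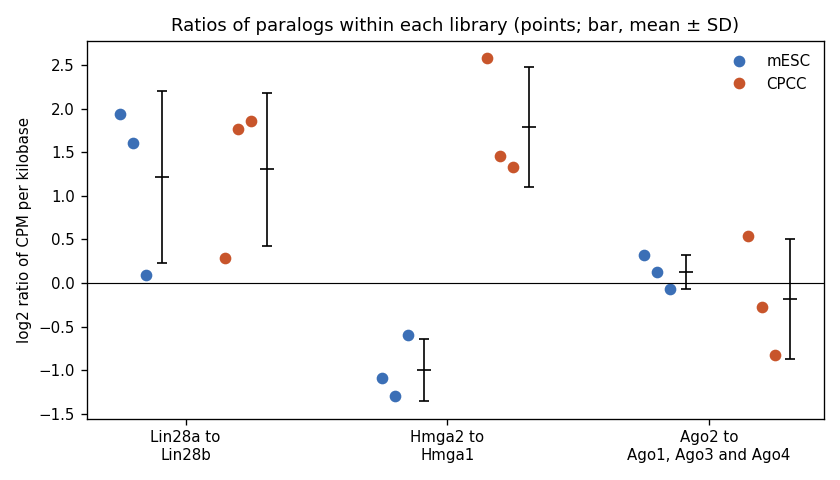
Log2 ratios of CPM per kilobase of exon (y axis) are plotted for each library of mESCs (blue) and CPCCs (red), with mean ± SD. The Hmga2 to Hmga1 ratio lies below 0 in all 3 mESC libraries and above 0 in all 3 CPCC libraries, whereas the other ratios overlap.

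Promoters of 8 of the 10 genes were in the RefSeq table, with 250 bases before and 50 after the start. Both strands were searched for the octamer ATGCAAAT (bound by POU factors such as OCT4), the SOX core ACAAAG and the E-box CACGTG. The octamer was found in the Hmga1 promoter alone among the 8, and in 1.74% of all 32851 promoters. The E-box was found in that of Lin28b (7.15% of all promoters) and the SOX core in that of Hmga2 (18.7%). A match is a run of letters and not a shown binding site. The Hmga1 promoter is given because it is the gene with the rarest of these motifs, and its reverse complement ATTTGCAT stands in capitals.
Hmga1 promoter, 250 bases before the start, of the window chr17:27556324-27556623, plus strand: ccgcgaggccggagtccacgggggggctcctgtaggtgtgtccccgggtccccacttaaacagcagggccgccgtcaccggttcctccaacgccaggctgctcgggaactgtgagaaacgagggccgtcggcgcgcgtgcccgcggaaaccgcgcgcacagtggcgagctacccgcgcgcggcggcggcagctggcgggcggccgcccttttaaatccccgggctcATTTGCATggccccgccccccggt

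Trim71 (chr9:114511273-114564370, minus strand) encodes an RNA-binding ubiquitin ligase of embryonic stem cells and an early let-7 target. Its level was 92.4, 84.8 and 69.4 CPM in mESCs, against 14.2, 17.6 and 27.4 CPM in CPCCs. The groups were far apart, and S06 held the most of the CPCC libraries. Trim71 fell by 2.06 on the log2 scale with an SE of 0.27, a fold of 4.17, and an adjusted p of 0.000191 from edgeR. Its absolute log2 fold change was the largest of the 10 genes, ahead of Hmga2 by less than the SE of either.

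Igf2bp1 (chr11:95957164-96005945, minus strand) encodes an RNA-binding protein that protects target messages from decay. Its level was 439, 412 and 342 CPM in mESCs, against 166, 153 and 207 CPM in CPCCs. All CPCC libraries lay below the mESC libraries. Igf2bp1 fell by 1.18 on the log2 scale with an SE of 0.18 and an adjusted p of 0.000462 from edgeR. Its paralogs fell as well, Igf2bp2 by 0.86 and Igf2bp3 by 0.70 on the log2 scale, at adjusted p values below 0.05 in edgeR's test.

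Among the processing enzymes, Drosha (chr15:12824815-12935292, plus strand), the nuclear nuclease, was the one that passed the test. Its level was 162, 181 and 151 CPM in mESCs, against 54.6, 99.9 and 108.6 CPM in CPCCs. The groups did not overlap, and S04 was the lowest library. Drosha fell by 0.91 on the log2 scale with an SE of 0.25 and an adjusted p of 0.0119 from edgeR. Without S04 it fell by 0.64 on the log2 scale and still passed.

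Dgcr8 (chr16:18253965-18289169, minus strand), the RNA-binding partner of DROSHA, had 55.5, 54.2 and 65.4 CPM in mESCs, against 61.4, 48.9 and 68.3 CPM in CPCCs. The libraries overlapped fully. The log2 fold change was 0.03 with an SE of 0.19 and an adjusted p of 0.903 from edgeR. Its end overlaps Trmt2a on the other strand, so some reads there could belong to either gene.

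Dicer1 (chr12:104687742-104751953, minus strand), the cytoplasmic nuclease, had 77.3, 86.1 and 86.9 CPM in mESCs, against 95.0, 92.5 and 107.6 CPM in CPCCs. The CPCC libraries lay above the mESC libraries by a small margin. The log2 fold change was 0.24 with an SE of 0.16 and an adjusted p of 0.223 from edgeR, which did not pass.

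Ago2 (chr15:73101625-73184948, minus strand), the Argonaute that can slice its target, had 128, 114 and 101 CPM in mESCs, against 96.0, 86.4 and 77.6 CPM in CPCCs. Every CPCC library was below every mESC library. The log2 fold change was -0.40 with an SE of 0.17 and an adjusted p of 0.0674 from edgeR. Without S04 the adjusted p was 0.0260 from edgeR. It was 0.0351 from edgeR with all libraries, genes of either table and missing ones at 3 counts, so the call lay near the threshold. As a share of the 4 Argonaute genes per kilobase, Ago2 made up 52.1% ± 3.38 (SD, n = 3) in mESCs and 46.9% ± 11.6 (SD, n = 3) in CPCCs, with Ago4 set to 0 in mESCs, where it is not listed (log2 ratio to the others, exact permutation test, two-sided, p = 0.6, and 0.7 adjusted over the 3 ratios).

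Per kilobase of exon, the order of levels in mESCs ran from Hmga1 at 69.9 ± 14.1 CPM per kilobase (SD, n = 3) through Igf2bp1 at 41.1, Hmga2 at 34.7, Drosha at 27.7, Trim71 at 15.8, Ago2 at 13.9, Dgcr8 at 7.68, Dicer1 at 4.98 and Lin28a at 4.59 to Lin28b at 1.79 ± 0.203. The libraries of Igf2bp1 and Hmga2, of Hmga2 and Drosha, of Trim71 and Ago2, and of Dicer1 and Lin28a overlapped, so those neighbours did not differ beyond their spread. In CPCCs the order began with Hmga2 at 137 ± 68.3 CPM per kilobase (SD, n = 3), then Hmga1 at 36.9, Igf2bp1 at 18.2, Drosha at 14.8, Ago2 at 10.5, Dgcr8 and Lin28a both at 7.83, Dicer1 at 5.87, Trim71 at 3.80 and Lin28b at 2.93 ± 0.580. There the libraries of Igf2bp1 and Drosha, Drosha and Ago2, Dgcr8 and Lin28a, Lin28a and Dicer1, and Trim71 and Lin28b overlapped. Hmga2 moved from the third place to the first and Trim71 from the fifth to the ninth.

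The CPCC libraries were not alike. Across S04, S05 and S06, Lin28a was 15.7, 30.5 and 47.1 CPM, Trim71 was 14.2, 17.6 and 27.4 CPM and Drosha was 54.6, 99.9 and 108.6 CPM, each lowest in S04. Hmga2 was highest there, and so was Ago2 at 96.0, 86.4 and 77.6 CPM. In the same order the pluripotency markers summed to 146.0, 283 and 407 CPM, and the neural markers to 510, 682 and 716 CPM. The cardiac progenitor markers summed to 213, 73.3 and 87.0 CPM and the endoderm markers to 744, 532 and 459 CPM, both highest in S04, and the mesenchymal markers to 6520, 9059 and 6284 CPM, highest in S05. With 3 libraries this is a description, and whether the makeup of the cultures bears on these genes was not tested.

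The genes whose profile over the 6 libraries was most like that of Hmga2, by the root mean square difference of centred log2 CPM, were Hipk3 (0.119), Trp53inp1 (0.130) and Lims1 (0.135). Hipk3 had 46.8, 42.1 and 47.0 CPM in mESCs, against 233, 128 and 130.0 CPM in CPCCs, again with S04 the highest. For Lin28a they were Nova1 (0.255), Shank1 (0.261) and B230217C12Rik (0.262), none of which passed the edgeR test (adjusted p of 0.103, 0.611 and 0.553).

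Beyond the 10 genes, 8 lists of pathway genes held 128 symbols, some of them older and newer names of 1 gene, and 113 of the symbols were tested. In these lists 36 genes rose and 46 fell in CPCCs, or 72.6%, against 61.4% of all genes tested. The median log2 fold change was -0.17 over the lists, against 0.03 over all genes. All adjusted p values below are from edgeR.

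Cofactors of the microprocessor and of nuclear export numbered 10, of which 0 rose, 6 fell and 4 did not pass, with a median log2 fold change of -0.72. The GTPase Ran, which powers the export of precursors with XPO5, fell from 2377 ± 208 to 771 ± 158 CPM (SD, n = 3, adjusted p = 8.34e-05). The splicing factors Srsf3 and Hnrnpa1, which also bind microRNA precursors, fell by 1.29 and 1.02 on the log2 scale. Xpo5 itself was at 37.5 CPM in mESCs and 38.9 CPM in CPCCs on average and did not pass.

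Of 8 Dicer partners and chaperones that load Argonaute, 1 rose and 7 fell, with a median log2 fold change of -1.20. The chaperone Hsp90aa1 fell from 6337 ± 1564 to 1012 ± 146 CPM (SD, n = 3, adjusted p = 1.25e-05), and its partner Fkbp4 fell by 2.02 on the log2 scale. Prkra, which encodes the DICER1 partner PACT, rose by 2.11 on the log2 scale, from 8.81, 11.8 and 19.9 CPM to 58.9, 52.4 and 63.8 CPM. Tarbp2, the other double-stranded RNA binding partner, fell by 0.98 on the log2 scale.

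Among 10 Argonaute paralogs and GW182 scaffolds, which bridge Argonaute to the decay machinery, 3 rose, 2 fell, 4 did not pass and Ago4 was listed for CPCCs alone at 1.99, 2.43 and 2.29 CPM. The GW182 gene Tnrc6b rose by 1.80 and the scaffold Limd1 by 1.85 on the log2 scale, whereas the helicase Mov10 fell by 1.71. Of 22 genes for deadenylation and decapping, 5 rose, 10 fell and 7 did not pass, with a median of -0.38. The subunits Cnot10 and Cnot11 of the deadenylase complex fell by 1.56 and 1.37, and the decapping enzyme Dcp2 fell by 1.29 on the log2 scale.

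Of 12 names for tailing and decay of let-7 precursors, 8 were tested, since 4 newer symbols (Tut4, Tut7, Tent2 and Tent4b) have no row and their older names do. Of the 8, 1 rose and 3 fell. Trim25, a cofactor of LIN28A in tailing, fell by 3.44 on the log2 scale, from 298 ± 45.1 to 27.4 ± 6.55 CPM (SD, n = 3, adjusted p = 6.18e-06). The uridylyl transferase gene Zcchc6 (TUT7) rose by 1.40, and its relative Zcchc11 (TUT4) was at 77.8 and 94.4 CPM on average and did not pass. The nuclease Dis3l2, which degrades tailed precursors, was at 3.70 CPM in mESCs and 3.56 CPM in CPCCs and did not pass.

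A list of 24 other let-7 targets had 14 genes that rose, 8 that fell and 2 that did not pass, with a median log2 fold change of 0.74. The cell cycle gene Ccnd2 rose from 0.618, 2.06 and 0.439 CPM to 1408, 1514 and 1152 CPM, and Irs2, an adaptor of insulin signalling, rose by 3.39 on the log2 scale. Myc rose by 3.25, whereas Mycn fell by 2.00 on the log2 scale. Of the 24, 18 held a seed match, and Ccnd2, Myc and Mycn were among those with 0. Nr6a1, with 8 matches, and Hic2, with 4, fell by 0.96 and 2.28, and Igf1r, with 2, rose by 2.30 on the log2 scale, so members with matches went both ways.

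The other chromatin proteins of the HMG group, 11 HMG box and HMGN genes, had 3 that rose, 3 that fell and 5 that did not pass. Hmgn3 rose from 2.16, 1.47 and 2.63 CPM to 42.9, 41.1 and 39.6 CPM, and Hmgb2 fell by 2.62 on the log2 scale. Of 31 host transcripts of microRNAs, 21 were tested, 9 rose and 7 fell. Slit3, Mir22hg and Mest rose by 5.48, 4.03 and 3.37 on the log2 scale, and Dnm3os and Mir99ahg were listed for CPCCs alone, at 22.0 to 46.1 CPM and 10.7 to 12.2 CPM. Mir17hg, the host of the miR-17 cluster, fell by 0.95 on the log2 scale.

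**Figure D5:**
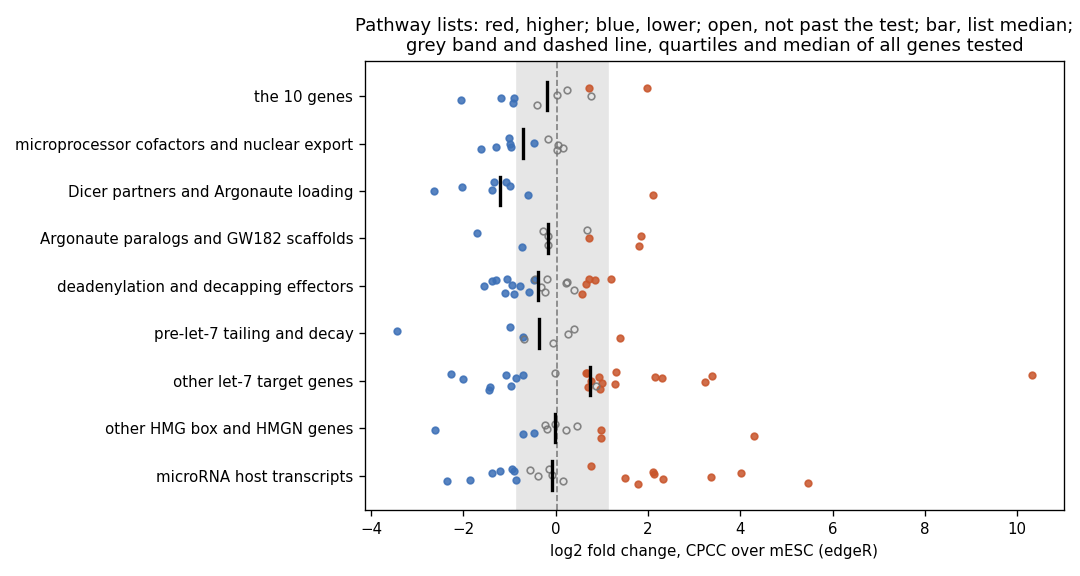
Each point is a tested gene of the 10 or of a pathway list, placed by its log2 fold change (CPCC over mESC, x axis), red where it rose, blue where it fell and open where it did not pass, with the list median as a bar and the quartiles of all genes tested as a grey band. The Dicer partners lie to the left with a median of -1.20 and the other let-7 targets to the right with a median of 0.74.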

How the data were processed

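PolyA+ RNA was made into cDNA with SMART-Seq v4 and Nextera XT, which do not mark strand, and sequenced paired-end. The authors deposited gene tables of estimated counts for 3 mESC and 3 CPCC libraries on mm10. STAR 2.7 is named in the submitters' processing notes, and the counter is not given in the sources used here. Library totals ran from 6442639 to 11436062 estimated counts. The name of each table gives the cell type, and its columns carry no replicate number.

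Counts were rounded. Genes in both tables (13001) were filtered with filterByExpr, which removed 530 and left 12471. TMM scaling and edgeR 4.0.16's quasi-likelihood test (R 4.3.3) were used without a block, with Benjamini-Hochberg adjustment over all genes tested and a threshold of 0.05. CPM used TMM library sizes, and levels per kilobase used exon bases of GENCODE M21 within the span that the tables give. DESeq2 1.42.0, other scalings, other filters, missing genes set to 0 or 3 counts and each library left out were alternatives. Summing Hmga1 with Hmga1b was added after seeing the data. The test was also run on simulated counts, with the same spread for every gene and few genes changed. In the real data 61.4% of the genes tested passed, so that run does not measure the error rate here. The members and lists were chosen with earlier results of these data known. Named genes were all 10 members, the 3 largest absolute changes past the test and without overlap in each list, and up to 2 genes listed in 1 table alone by the largest bound; other genes named were chosen after their values were seen, and 1 gene that the rule picks is not reported here. The replicates were clones of mESC lines from separate blastocysts, and libraries were processed in parallel.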

Additional observations from a re-analysis of the deposited data

How the results depend on the processing

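No paired analysis was possible because the columns carry no replicate numbers. Hmga1, Hmga2, Trim71, Igf2bp1 and Drosha kept their direction and passed under all 15 alternatives, and Dicer1 kept its direction and did not pass under any of them. With 1 library left out, the log2 fold change of Lin28a ran from 0.34 to 1.16, of Lin28b from 0.63 to 0.87, of Ago2 from -0.49 to -0.31 and of Dgcr8 from -0.07 to 0.16; single values were 1.11 for Lin28a and -0.47 for Ago2 without S04, and -0.0079, -0.017 and -0.074 for Dgcr8 without S01, S02 and S06. With genes of either table and missing ones at 3 counts, Dgcr8 was -0.038 and Ago2 was -0.47 (adjusted p = 0.0351, edgeR). Among the pathway lists, the medians that moved were those of the Argonaute and GW182 list, from -0.16 to 0.28 with missing genes at 0 and 0.19 at 3 counts, and of the host transcripts, from -0.08 to 0.48 and 0.39. Requiring 10 or more counts of each library moved the deadenylation median from -0.38 to -0.29. With 1 library left out the medians ran from -0.30 to 0.16 for the Argonaute list and from -0.17 to 0.14 for the hosts (highest without S04 in both), from -0.48 (without S06) to -0.29 (without S03) for deadenylation and from -0.54 to -0.055 (without S03) for tailing. Calls fell from 15 to 9 in deadenylation without S02, and ran from 3 (without S05) to 7 in the HMG list, which had 6. Counts or medians of the cardiac, mesenchymal, neural and endoderm marker lists also moved under some alternatives. The causes were not tested. Missing genes at 0 counts moved the median of all genes from 0.03 to 0.17, since genes listed for 1 cell type alone enter there. With 3 libraries a group, a change near the SE of its gene was not detectable.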

Other observations

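Over the 11870 tested genes with an annotated 3′ UTR, the number of CTACCTC matches was set beside the change between cell types, as a description. Genes with 0 matches numbered 10584 and had a median log2 fold change of 0.01, the 1117 genes with 1 match had 0.27, the 143 with 2 had 0.22 and the 26 with 3 or more had 0.62. The share that rose was 31.5%, 37.7%, 35.0% and 42.3%, and the share that fell was 30.5%, 24.2%, 26.6% and 23.1%. The median 3′ UTR length rose over the same classes, from 1080 to 2215, 3601 and 4459 bases, and the part of length in the pattern was not tested. Among the 10 genes, those with 3 or more matches went both ways: Hmga2 and Lin28b rose, Trim71 and Igf2bp1 fell, and Ago2 did not pass.

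The tables held 10 rows named for microRNA hairpins, none of them let-7. Of these, 8 were tested, 1 rose and 4 fell, a share near the 61.4% of all genes tested that passed. Mir6236 rose from 34.6, 44.0 and 21.1 CPM to 198, 232 and 217 CPM, and Mir6481 fell by 1.22 on the log2 scale. Mir692-2 and Mir692-3 had the same value in every library, so their reads could not be told apart. These genes were chosen after their values were seen.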
